A study of Oryctolagus cuniculus with 10 samples.

Results

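Lungs of rabbit fetuses with a surgical diaphragmatic hernia that later had the trachea closed were compared with lungs of fetuses with the hernia alone. The comparison used 5 of the 10 libraries of the series, chosen by their labels. They were 3 hernia libraries with occlusion, called occluded hernia 1 to 3, and 2 without, called untreated hernia 1 and 2. The comparison itself was chosen with earlier results of these data known. All fetuses were New Zealand rabbits. Both groups had a left diaphragmatic hernia made at embryonic day 25, and the occluded group also had the trachea closed at day 27. Messenger RNA of the lateral left upper lobe was sequenced at E30.5. The other 5 libraries, 3 controls with no operation named in their label and 2 with occlusion alone at day 27, took no part in the fit and served to place the levels. Replicates are numbered in the order of the records. The labels give no sex, litter or batch, do not say how many fetuses gave each library, and do not say whether untreated hernia fetuses had a second, sham operation.

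A diaphragmatic hernia lets abdominal organs into the chest, and the fetal lung beside them stays small, with few branches and thick-walled vessels. The fetal lung secretes liquid that leaves through the trachea. Closing the trachea keeps that liquid in, stretches the airspaces and makes the lung grow, and it is also known to lower the number of type II cells, which make surfactant.

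The 5 libraries held between 16.4 and 22.2 M estimated counts, and 13210 of 13429 genes passed the low-count filter of 1 CPM, the share of a library's counts scaled to a common total, in at least 2 of them. The table lists Ensembl gene identifiers without symbols, and 0 of them matched the reference table of rabbit genes, so genes are given by identifier, and no gene group could be described by function. The labelled tissue could not be checked against marker genes for the same reason. In bulk tissue, fewer cells of a type and less RNA per cell cannot be told apart. The untreated hernia libraries carry the title stems M38 and M39 and the occluded ones M83, M87 and M88; control 2 shares the stem M83 with occluded hernia 1, and occlusion-only 2 shares M88 with occluded hernia 3. The remaining controls carry M85 and M98, and occlusion-only 1 carries M86. What the stem stands for is not given, and in the 5 hernia libraries a difference that goes with it cannot be told apart from occlusion.

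Occlusion went with large differences in a few genes. edgeR's quasi-likelihood test called 9 genes at a Benjamini-Hochberg adjusted p under 0.05, which is 0.0681% of the genes tested; 2 rose and 7 fell. A pair of falling identifiers, ENSOCUG00000023301 and ENSOCUG00000025982, have identical counts in all 10 libraries and therefore count as 1 measurement, which leaves 8 distinct rows. The called genes fall into 4 patterns once the other libraries are set beside them: an on-off pair, a set of 4 genes high in both untreated hernia lungs, 1 gene low in every occluded lung, and 1 gene raised in the occluded hernia lungs.

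ENSOCUG00000029107 was the rising gene with the lowest p and the widest change. It had 0 counts in untreated hernia 1 and 2, and stood at 156, 187 and 138 CPM in occluded hernia 1, 2 and 3. A count of 0 allows up to 3 counts, or 0.184 CPM in the shallower untreated library, so the mean of 160 ± 24 CPM (SD, n = 3) was at least 872-fold higher (edgeR adjusted p = 0.00141). The groups did not overlap. In the libraries outside the comparison this gene did not follow the operations. It was at 0 counts in controls 1 and 3 and in occlusion-only 1, and at 159 CPM in control 2 and 111 CPM in occlusion-only 2.

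ENSOCUG00000023301, and with it ENSOCUG00000025982, showed the mirror image. The level was 85.1 and 81.7 CPM in untreated hernia 1 and 2 and 0.153, 0.203 and 0.531 CPM in the occluded hernia lungs, where the counts were 3, 4 and 10. On the log2 scale the change was -8.12 ± 0.32 (SE; edgeR adjusted p = 0.00107). Among the other libraries, controls 1 and 3 and occlusion-only 1 were high, at 55.2, 76.4 and 89.8 CPM. Control 2 was low, at 0.648 CPM, and occlusion-only 2 had 0 counts. Each of the 10 libraries thus had one of ENSOCUG00000029107 and ENSOCUG00000023301 high and the other at or near 0, with 5 libraries on each side. The division ran through the controls and through the occlusion-only group, while among the hernia libraries it matched the treatment completely. The division also matched the title stems. Only the stems M83 and M88 are shared between libraries, so no other stem could have disagreed. The libraries with ENSOCUG00000029107 high were those of the stems M83, M87 and M88, control 2 and occlusion-only 2 included, and those with it at 0 carried M38, M39, M85, M86 and M98. In the 5 hernia libraries, stem and occlusion cannot be told apart for this pair. Without a hernia, no difference of the pair by occlusion was detected: in a separate edgeR fit of occlusion-only against control libraries, the log2 change was 0.06 ± 2.63 (SE) for ENSOCUG00000029107 and 0.03 ± 1.94 (SE) for ENSOCUG00000023301, with an edgeR adjusted p of 1 for both.

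The set of 4 genes was high in both untreated hernia lungs and nearly silent in all 3 occluded ones, where they had between 3 and 20 counts per library. ENSOCUG00000025949 stood at 102 and 187 CPM without occlusion and at 0.306, 0.711 and 1.06 CPM with it (log2 change -7.69 ± 0.45, SE; edgeR adjusted p = 0.00592). ENSOCUG00000022401 stood at 29.9 and 75 CPM against 0.612, 0.406 and 0.956 CPM (log2 change -6.30 ± 0.51; edgeR adjusted p = 0.0221). In both genes, untreated hernia 2 was the higher of its group. The same held for ENSOCUG00000022710, with 23.1 and 51 CPM against 0.612, 0.609 and 0.744 CPM (log2 change -5.81 ± 0.40; edgeR adjusted p = 0.0112), and for ENSOCUG00000024894, with 10.8 and 17.5 CPM against 0.153, 0.203 and 0.266 CPM (log2 change -6.05 ± 0.38; edgeR adjusted p = 0.00823). Group means differed by between 56.6-fold and 208-fold over the 4 genes, and no groups overlapped.

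Controls were also nearly silent in these 4 genes, between 0.17 and 1.59 CPM, beside 0.153 to 1.06 CPM in the occluded hernia lungs. In ENSOCUG00000022710 and ENSOCUG00000024894 every control lay above every occluded hernia lung, at small counts. In a fit of the 8 control and hernia libraries, the untreated hernia lungs were above control (edgeR adjusted p between 0.00112 and 0.00216). That comparison shares its hernia libraries with the one above. The 4 genes were also grouped by an untreated hernia mean far above the control mean. Their difference from control was thus set by the choice and is a description. The genes were not low in every occluded lung. Occlusion-only 1 held 73.3 CPM of ENSOCUG00000025949, 27.3 CPM of ENSOCUG00000022401, 17.5 CPM of ENSOCUG00000022710 and 7.97 CPM of ENSOCUG00000024894. Occlusion-only 2 held 2.54, 1.56, 1.91 and 0.347 CPM of the same genes. In the separate fit of occlusion-only against control libraries, ENSOCUG00000024894 was not tested. The rest of the set did not pass there by edgeR (adjusted p from 0.712 to 0.739) but did by DESeq2 (0.00111 to 0.0465). With 1 occlusion-only library left in that fit, only the size is given. The log2 change of these genes ran from 0.679 to 2.385 without occlusion-only 1 and from 3.877 to 7.219 without occlusion-only 2. In level, occlusion without a hernia thus lay at or above control where occlusion after a hernia lay below the untreated hernia lungs. The test of that difference, the interaction of hernia and occlusion over all 10 libraries, gave an edgeR adjusted p between 0.0803 and 0.098 for the 4 genes and did not pass. All 4 passed in DESeq2 (adjusted p from 6.41e-15 to 8.87e-10). None passed under RLE scaling (edgeR adjusted p from 0.0806 to 0.0983). Nor did any pass when 1 control or 1 occluded hernia library was left out (edgeR adjusted p from 0.232 to 0.482). Leaving out an occlusion-only library left 1 in that group, so only the size of the interaction is given for those fits. The log2 interaction then ran from -6.21 to -10.07 without occlusion-only 1 and from -9.68 to -14.91 without occlusion-only 2.

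ENSOCUG00000027099 was low in every occluded lung. It stood at 100 and 92.3 CPM in the untreated hernia lungs and at 0.969, 2.94 and 4.25 CPM in the occluded ones, a log2 change of -5.14 ± 0.47 (SE; edgeR adjusted p = 0.0417). Controls lay at 83.4, 148 and 93.8 CPM, and occlusion-only 1 and 2 at 2.28 and 2.89 CPM. All 5 occluded libraries of the series were below all 5 others. The occlusion-only and control libraries share no library with the hernia comparison, but the stems M83 and M88 occur in both. In the former the log2 change was -5.39 ± 0.36 (SE; edgeR adjusted p = 0.0469), and this was the 1 gene called there, or 0.0076% of 13160. That call was lost without control 1 (edgeR adjusted p = 0.128) or control 3 (0.28). The interaction was 0.25 ± 0.64 (SE; edgeR adjusted p = 0.91), so a difference between the occlusion effects with and without a hernia was not detected.

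ENSOCUG00000003322 was raised after hernia and occlusion together. It stood at 22.3 and 18.1 CPM in the untreated hernia lungs and at 87, 107 and 112 CPM in the occluded ones. The means were 20.2 ± 3 CPM (SD, n = 2) and 102 ± 13 CPM (SD, n = 3), a 5.05-fold rise (log2 change 2.34 ± 0.17, SE; edgeR adjusted p = 0.0132). Controls were at the level of the untreated hernia lungs, with 20, 17.6 and 28.2 CPM, and in the fit of 8 libraries the occluded hernia lungs lay 2.22 ± 0.19 (SE, log2) above control (edgeR adjusted p = 0.00632). Occlusion alone gave 51.5 CPM in replicate 1, above every control, and 14 CPM in replicate 2, below every control. The interaction was 1.76 ± 0.63 (SE; edgeR adjusted p = 0.469). With 1 occlusion-only library left, its size was 2.98 without occlusion-only 1 and 1.11 without occlusion-only 2.

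**Figure D1:**
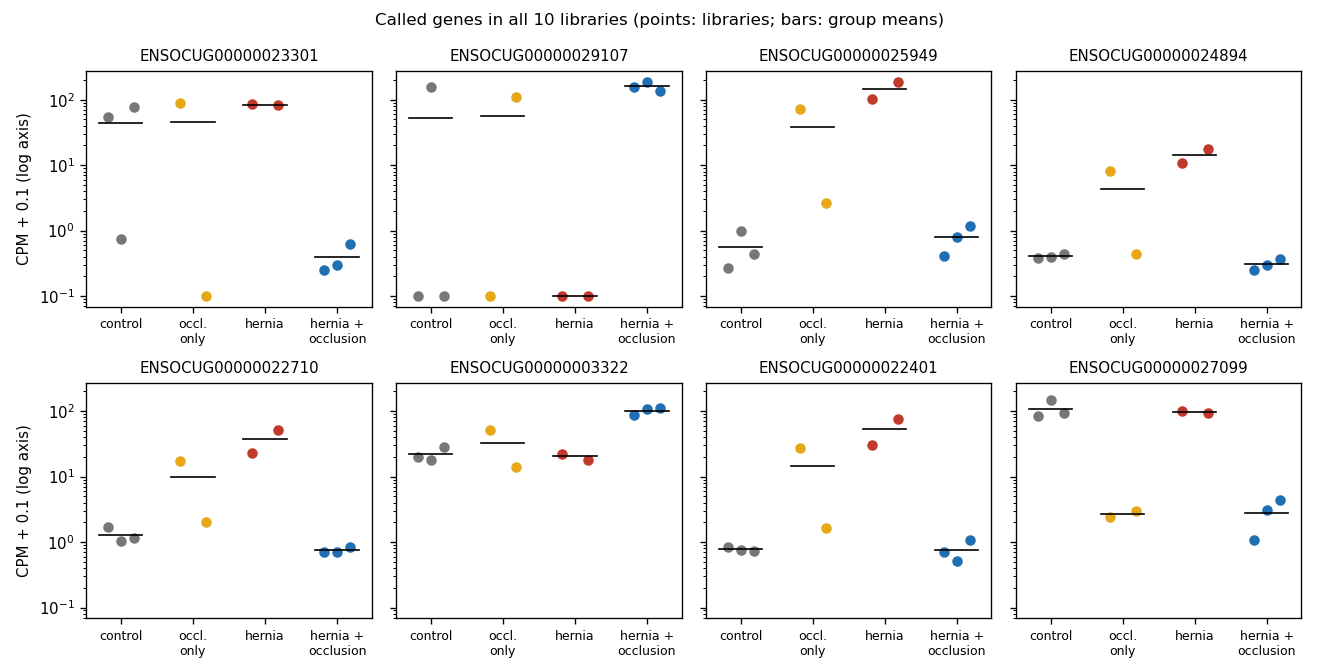
CPM plus 0.1 on a log axis for the called genes in each of the 10 libraries, by group, with bars at the group means; ENSOCUG00000025982 is left out because its counts equal those of ENSOCUG00000023301. The on-off pair splits the control and occlusion-only groups, while ENSOCUG00000027099 is below 5 CPM in each occluded library and above 80 CPM in each of the others.

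The calls differed in how far they depended on single libraries. Those of ENSOCUG00000023301 and ENSOCUG00000025982 were kept when any one of the 5 libraries was left out, as were those of ENSOCUG00000029107 and ENSOCUG00000025949. ENSOCUG00000027099 lost its call without untreated hernia 1 or 2 or occluded hernia 3, and in edgeR's robust fit (adjusted p from 0.0513 to 0.337). ENSOCUG00000003322 lost it without the same 3 libraries (edgeR adjusted p from 0.0763 to 0.131). In the set of 4 genes, ENSOCUG00000022401 and ENSOCUG00000024894 lost it without untreated hernia 2, occluded hernia 1 or occluded hernia 3, and ENSOCUG00000022710 without occluded hernia 1 or 3 (edgeR adjusted p from 0.0651 to 0.191); under limma-voom all 4 had an adjusted p between 0.0908 and 0.0958. The genes just outside the threshold were ENSOCUG00000011764, with a log2 change of 1.51, ENSOCUG00000026654, with -5.13, and ENSOCUG00000017694, with -2.52, each at an edgeR adjusted p of 0.0551.

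Beyond these genes, many smaller differences separated the groups, and their call depended on the test and on single libraries. An unadjusted p under 0.05 was reached by 2809 genes, 1568 higher and 1241 lower, and 441 genes had an adjusted p under 0.1. The 3 occluded hernia lungs lay above both untreated ones in 2695 genes (20.4% of those tested) and below both in 2716 (20.6%). DESeq2 called 1328 genes, or 10.9% of the 12184 to which it gave an adjusted p, with 773 higher and 555 lower, and it called all 9 genes of edgeR. Of its 1328 genes, 1096 changed less than 2-fold by edgeR's estimate, and the median size of the change was 0.62 on the log2 scale, against 0.25 over all genes tested.

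Occluded hernia 2 was the library on which the edgeR count turned. Without it edgeR called 828 genes (6.27%), 533 higher and 295 lower, among them all 9. Of those 828 genes, 531 were also called by DESeq2 with all 5 libraries, which is 64.1% of the edgeR list and 40% of the DESeq2 list. Without occluded hernia 3 there were 4 calls, and without any of the other 3 libraries there were between 6 and 9. Adding the controls to the fit, so that 8 libraries share the estimate of spread, gave 464 calls (3.51%), which no longer held ENSOCUG00000029107. Adding the occlusion-only libraries as well left 1 call (0.00757%), ENSOCUG00000027099.

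**Figure D2:**
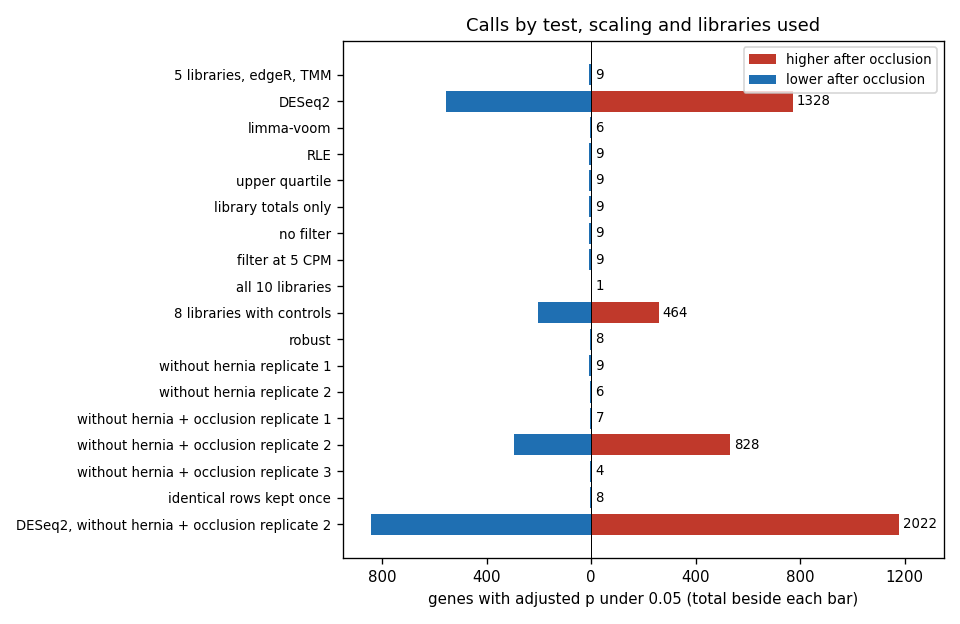
Number of genes with an adjusted p under 0.05 for occluded against untreated hernia lungs in each fit, drawn to the right for higher and to the left for lower genes, with the total beside the bar. The fit of 5 libraries has 9 calls, DESeq2 has 1328 and edgeR without occluded hernia replicate 2 has 828.

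Occluded hernia 2 lay between the other occluded and the untreated hernia lungs on the first axis of variation, but at one end of the second. On the first principal component of log2(CPM + 0.5), with 48.1% of the variance among the 5 libraries, the untreated hernia lungs lay at -20.52 and -37.41 and occluded hernia 1 and 3 at 25.17 and 40.7. Occluded hernia 2 was at -7.95. On the second component, with 24.7% of the variance, occluded hernia 2 and untreated hernia 1 stood at opposite ends, at -32.35 and 30.9, and the other 3 libraries lay between -5.55 and 9.97. Across genes, occluded hernia 2 correlated with untreated hernia 1 and 2 at r = 0.9644 and 0.9715, and with occluded hernia 1 and 3 at 0.9696 and 0.9621. Occluded hernia 1 and 3 correlated with each other at 0.9793, and the untreated hernia libraries with each other at 0.9749. These correlations are across genes, which are not independent replicates.

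A set of larger differences was then described: genes whose groups did not overlap and whose change was at least 2-fold. It held 244 higher genes (1.85% of those tested) and 220 lower genes (1.67%). Since the set was chosen by this contrast, its values here are a description. Most changes were modest: 215 of the 244 higher genes and 187 of the 220 lower ones lay between 2-fold and 4-fold, and 10 and 17 changed 8-fold or more. Genes of low abundance made up most of the set. Among the 3783 tested genes with a mean under 10 CPM, 149 were in the set as higher and 145 as lower. Among the 2219 genes at 100 CPM or above there were 10 and 12. Occluded hernia 2 was the occluded library closest to the untreated ones in 146 of the 244 higher genes (59.8%) and in 106 of the 220 lower ones (48.2%). Occluded hernia 1 and 3 were closest in 53 and 45 of the higher genes and in 63 and 51 of the lower ones. The same count was not made over all genes tested. Of the set, DESeq2 called 126 higher and 98 lower genes, beside its 10.9% of all genes; the set was chosen by the same contrast.

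**Figure D3:**
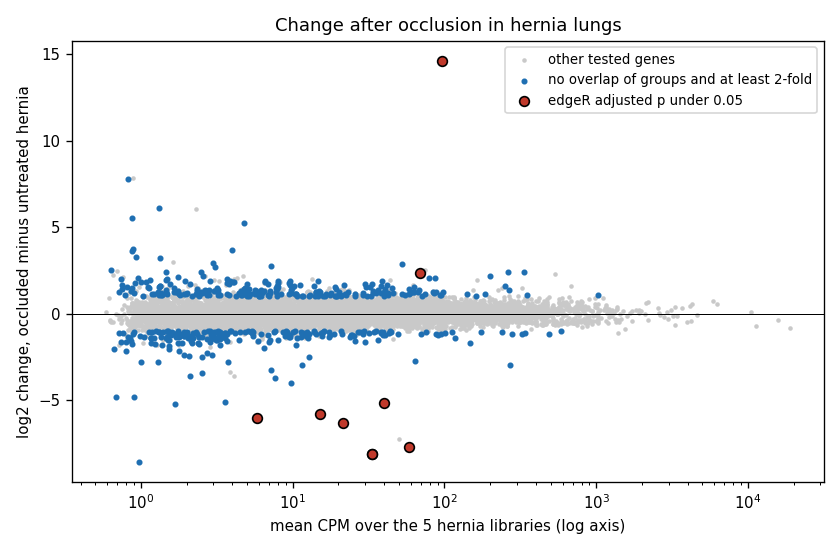
Log2 change of occluded against untreated hernia lungs (vertical) against mean CPM over the 5 libraries (log axis), 1 point per tested gene. The 9 called genes (8 visible positions, since 2 have equal counts) lie at changes of 2.34 and 14.61 upward and between -5.14 and -8.12 downward; the value of 14.61 is set by the fit's handling of 0 counts.

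The most abundant genes held no edgeR call. Over the 50 genes with the highest mean, from 1270 to 18800 CPM, the log2 change ran from -1.13 to 0.71 with a median of 0.00, and the median over all genes tested was also 0.00. The groups did not overlap in 10 of the 50 upward and 14 downward, beside 20.4% and 20.6% of all genes tested. DESeq2 called 5 of the 50 as higher and 10 as lower, beside 10.9% of all genes in both directions together.

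The libraries outside the fit placed the set of 2-fold genes against lungs without a hernia. For each gene the level of a library was put on a scale where 0 is the mean of the untreated and 1 the mean of the occluded hernia lungs, in log2(CPM + 0.5). Over the 244 higher genes, the median position of controls 1, 2 and 3 was 0.27, 0.30 and 0.40, nearer the untreated than the occluded hernia lungs, against 0.48, 0.39 and 0.56 over all genes tested. Over the 220 lower genes it was 0.48, 0.40 and 0.61. By the mean of the controls, 66 of the 244 higher genes lay past the untreated hernia level and 15 past the occluded level. Among the 220 lower genes 24 and 8 did. Over all 13210 genes tested, 3904 (29.6%) lay past the untreated hernia level and 3477 (26.3%) past the occluded level. The occluded hernia lungs lay above every control in 118 of the 244 higher genes, and the untreated hernia lungs lay below every control in 101. Over all 13210 genes tested these counts were 1464 and 2271. Of the 220 lower genes, the occluded hernia lungs were below every control in 97, and the untreated ones above every control in 119, beside 1603 and 2344 of all genes tested. These counts use the libraries that chose the set.

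The occlusion-only lungs differed from each other on this scale. Occlusion-only 1 had a median position of 1.04 over the higher and 0.80 over the lower genes, at the side of the occluded hernia lungs, with 0.99 over all genes tested. Occlusion-only 2 had 0.24 and 0.43, within or just outside the range of the controls, with 0.23 over all genes tested. Both occlusion-only lungs lay above every control in 42 of the 244 higher genes (17.2%) and below in 9 (3.69%), where all genes tested gave 9.81% and 10.7%. For the 220 lower genes the counts were 8 above (3.64%) and 30 below (13.6%). Controls and occlusion-only libraries share no library with the fit that chose the set, but the stems M83 and M88 occur in both. In the test of the interaction over all genes, edgeR called 0 of 13379 (0%), while 1324 genes reached p under 0.05 before adjustment and DESeq2 gave 66 calls.

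**Figure D4:**
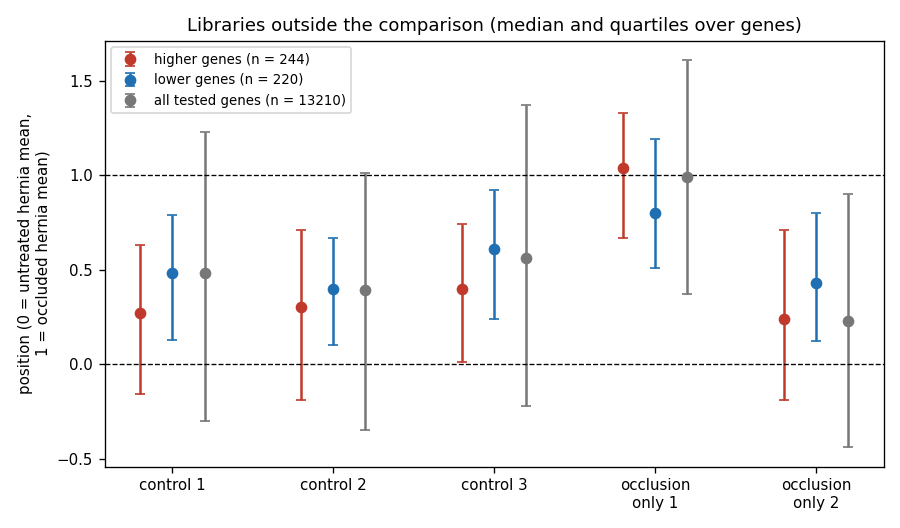
Position of each control and occlusion-only library between the mean of the untreated (0) and of the occluded (1) hernia lungs, as the median and quartiles over the 244 higher genes, the 220 lower genes and all 13210 tested genes. The medians of occlusion-only 1 lie between 0.80 and 1.04, while those of occlusion-only 2 and the controls lie between 0.23 and 0.61.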

How the data were processed

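Per the submitters' processing notes, kallisto 0.42.2.1, edgeR and the build OryCun2.0 were used, with no role or order given; summing to genes, rounding and filtering are not stated there. The table the authors deposited is named for CPM, but holds whole numbers with unequal column totals and was read as estimated counts; no rounding was needed. Reads shared by similar or overlapping genes may have been divided, so those genes are uncertain.

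Genes reaching 1 CPM in 2 or more of the 5 libraries were kept (219 removed), scaled by the trimmed mean of M-values and tested with edgeR 4.0.16 (R 4.3.3) with 1 mean per group, leaving 3 residual degrees of freedom, and Benjamini-Hochberg adjustment over all 13210 genes. Fits of occlusion-only against control, of 8 libraries and of all 10 (interaction) used the same steps. Alternatives used DESeq2 1.42.0, limma 3.58.1, other scalings, filters and sets of libraries. Printed CPM use scaling factors over all 10 libraries; standard errors derive from the F statistic. The p-values measure the spread between libraries, whose origin in separate fetuses the labels do not state. Printed limits for 0 counts are for counting error only.

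The comparison and the lists were chosen with earlier results of these data known. The rule for named genes, without symbols, took per direction the gene with the lowest p and the one with the largest change among calls without overlap and with at least 5 CPM: ENSOCUG00000029107, ENSOCUG00000003322, ENSOCUG00000023301 and ENSOCUG00000025982. The other 5 called genes and the 3 just outside the threshold were named after their values were seen. The 14 gene lists could not be applied, since 0 identifiers matched.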

Additional observations from a re-analysis of the deposited data

How the results depend on the processing

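The number of calls for occluded against untreated hernia lungs stayed within 1.5 times of 9 in 11 of 17 alternatives: 3 other scalings, 2 other filters, robust estimation, limma-voom (6), identical rows kept once and leaving out 3 of the 5 libraries. It was 1328 with DESeq2, 1 with all 10 libraries in the fit and 464 with 8. Leaving out 1 library gave between 4 and 828 calls, the latter without occluded hernia 2. DESeq2 without occluded hernia 2, chosen after seeing the data along with the identical rows, called 2022. The 9 called genes kept their direction in all 152 values over these alternatives, and 28 of those values did not pass; the cause was not tested.

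For occlusion alone against control, the 1 call became 76 with DESeq2 and 2 with all 10 libraries, and leaving out 1 library gave between 0 and 265 calls; there were 0 without control 1 or 3, 12 without occlusion-only 1 and 265 without occlusion-only 2. For the interaction, 0 calls became 66 with DESeq2, and leaving out 1 library gave between 0 and 11. Values that changed sign, none of which passed, came from the on-off pair and 2 other genes. In occlusion-only against control, ENSOCUG00000029107 gave -0.53 without control 1 or 3 and -12.95 without occlusion-only 2, and up to 12.96 without control 2. ENSOCUG00000023301 and ENSOCUG00000025982 gave -0.55 without control 2 and -12.63 without occlusion-only 1, up to 1.03 without occlusion-only 2, and their interaction ran from -9.15 without occlusion-only 2 to 4.57 without occlusion-only 1. ENSOCUG00000003322 gave -0.64 without occlusion-only 1 and up to 1.24 without occlusion-only 2. The interaction of ENSOCUG00000027099 was -0.04 without control 2, -0.22 without occluded hernia 3 and up to 0.65 without occluded hernia 1.

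No paired analysis was possible because the group labels carry no replicate numbers, and neither untreated hernia library shares its title stem with another library, so a fit with the stem as a block cannot estimate the hernia comparison or the interaction. The 8-library and 10-library fits leave out the stems M83 and M88 that groups share. In the set of 4 genes, the occluded hernia values rest on between 3 and 20 counts per library.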

Other observations

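The pair ENSOCUG00000023301 and ENSOCUG00000025982 was not the only set of rows with equal counts. In the table, 19 rows in 9 sets have identical counts in all 10 libraries, so each set holds a single measurement. Keeping each set once left 8 calls by edgeR.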
